A study of Homo sapiens with 4 samples.

Results

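The activity-dependent genes NPAS4, BDNF, ARC, NR4A1, NR4A2, NR4A3, NPTX2 and HOMER1 were examined for binding of the transcription factor SPIB, an ETS-family protein best studied in the B lineage and in plasmacytoid dendritic cells. These 8 genes, of 20037 protein-coding genes in the RefSeq table, were chosen by their role with the positions and folds of these peaks already known, among them the peak in NPAS4 that leads the attached list. Their peaks are therefore given as a description, with no test. A peak was assigned to a gene where its summit lay in the RefSeq span or within 5 kb of it. By this rule the genes held 2 of the 462 attached peaks and 5 of the 9024 suspended peaks.

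The cells were H1703, an established human lung squamous carcinoma line, and in all 4 libraries they overexpressed SPIB. No library without SPIB overexpression was analysed here. Attached cells gave 1 ChIP and 1 input library, and suspended cells gave 1 of each. The ChIP used the FLAG antibody M2, and the treatment label names 24 h of suspension for every library, so the condition label was used to tell attached from suspended. With 1 ChIP library per condition there is no replicate check, and no p-value is given. The filtered ChIP libraries held 21108364 (attached) and 20766909 tags (suspended), and the median peak held 18 and 15 tags. Peaks do not measure expression, so the cell type was not checked against its markers.

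In neurons, synaptic activity lets calcium into the cell, and kinases and phosphatases then switch on the factors CREB, SRF and MEF2 at waiting genes. The first genes to respond encode transcription factors such as NPAS4 and the NR4A nuclear receptors. Others encode effectors at the synapse: BDNF is a secreted growth factor, NPTX2 a secreted pentraxin that gathers AMPA receptors, ARC a protein that drives AMPA receptor uptake, and HOMER1 a scaffold for metabotropic glutamate receptors. NPAS4 and BDNF are best known from neurons, while the NR4A genes respond to many stimuli in many tissues.

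The results turn on NPAS4 and BDNF, and on whether the peaks meet the starts of these genes. The sequences below come from the RefSeq promoter table (GRCh38.p14), which gives 250 bases before and 50 after an annotated start. It held 12 windows for 6 of the 8 genes. The 250 bases before a start of NPAS4 (chr11:66420754-66421003, plus strand) and of NR4A3 (chr9:99821635-99821884, plus strand) are shown because they hold the most matches to the CREB core TGACG, which is in capitals on either strand. The 30 bases of BDNF (chr11:27720730-27720759, minus strand) are shown because they lie inside a peak, and the match to the PU box GAGGAA, read there on the opposite strand, is in capitals.
NPAS4: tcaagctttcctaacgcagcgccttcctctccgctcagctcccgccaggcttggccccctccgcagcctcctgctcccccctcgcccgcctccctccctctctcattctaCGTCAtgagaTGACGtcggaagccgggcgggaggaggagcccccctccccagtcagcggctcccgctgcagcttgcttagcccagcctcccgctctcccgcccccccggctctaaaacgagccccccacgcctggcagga
NR4A3: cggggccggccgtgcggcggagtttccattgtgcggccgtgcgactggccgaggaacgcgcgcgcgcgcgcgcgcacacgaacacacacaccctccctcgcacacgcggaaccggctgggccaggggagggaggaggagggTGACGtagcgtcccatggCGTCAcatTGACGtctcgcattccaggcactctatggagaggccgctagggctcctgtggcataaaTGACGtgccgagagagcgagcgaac
BDNF: tagagatttttaagccttTTCCTCctgctg

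NPAS4 and BDNF were called in both lists, ARC and NR4A1 only in the suspended list, and NR4A2, NR4A3, NPTX2 and HOMER1 in neither. Among all protein-coding genes 1.86% had an attached peak by the same rule, 28.6% a suspended peak, and 1.36% a peak in both lists. The 8 genes had an attached peak in 2 members and a suspended peak in 4, and since the members were picked with these peaks known, nothing is read from the counts. Longer genes held peaks more often: a suspended peak was found at 16.0% of genes of up to 5 kb, 24.7% of those of 5 to 20 kb, 29.3% of 20 to 50 kb, 33.8% of 50 to 100 kb and 41.9% of longer ones. HOMER1, the longest member at 141 kb, had no peak, and ARC, the shortest at 3.43 kb, had 1.

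**Figure D1:**
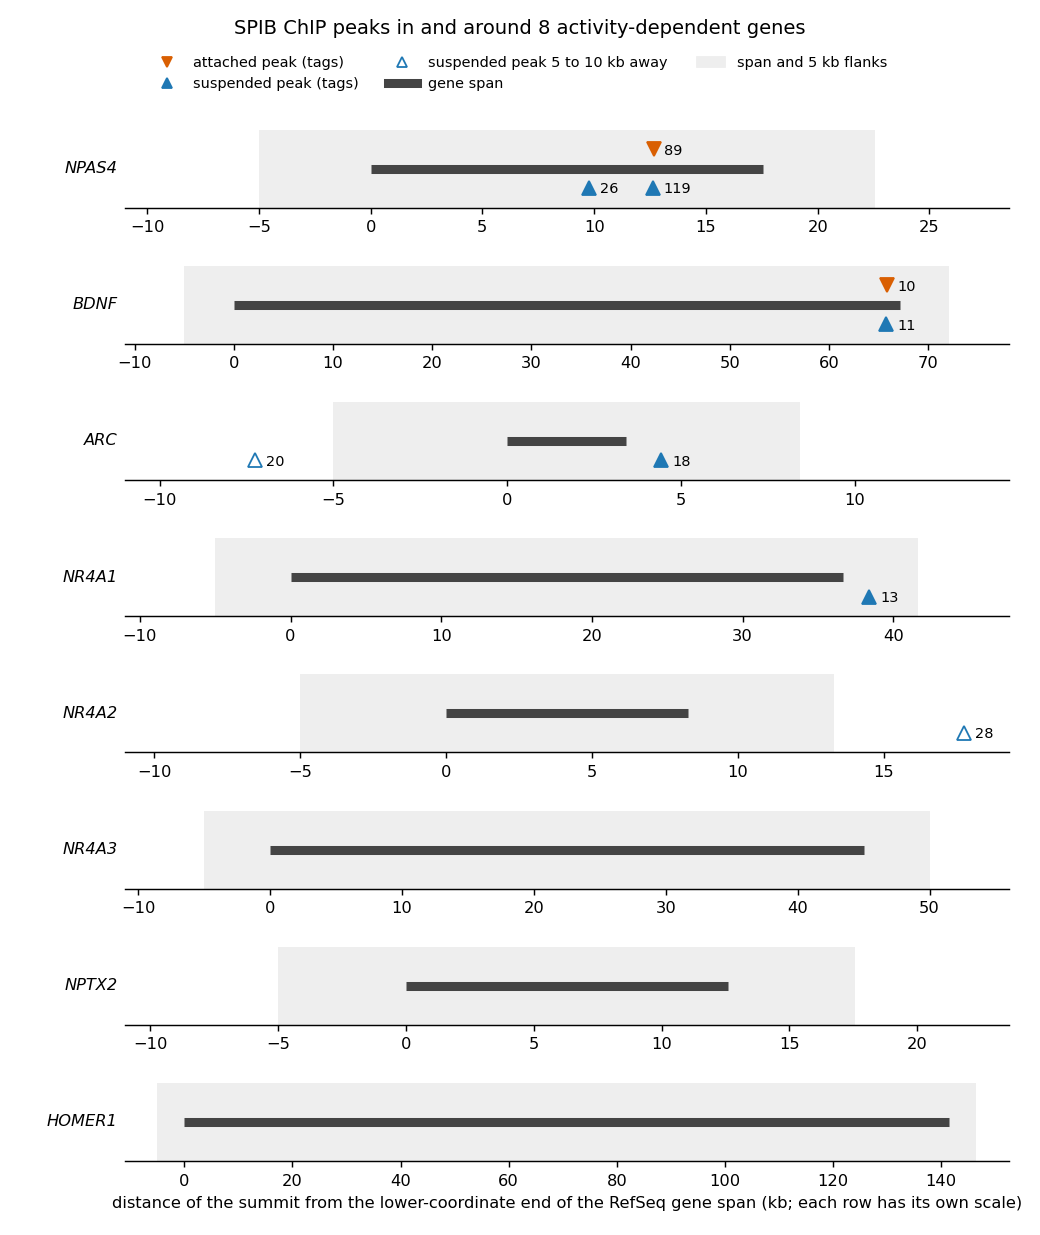
Peaks in and around the 8 genes. Each row is 1 gene on its own scale, the horizontal axis is the distance of the summit from the lower-coordinate end of the gene span in kb, filled triangles are attached (pointing down) and suspended (pointing up) peaks with their tags, and open triangles are suspended peaks 5 to 10 kb away. Peaks of both lists coincide in NPAS4 and BDNF, and the open triangles at ARC and NR4A2 lie outside the grey 5 kb flanks.

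NPAS4 encodes a neuronal transcription factor of the bHLH-PAS family that is induced by calcium entry. The gene spans chromosome 11, 66409158 to 66426707 (hg38), and the promoter table gives starts at 66421004 and 66421035 on the plus strand. The attached peak, at 66421548 to 66422000, was 453 bp wide and held 89 tags (exact Poisson 95% interval 71.5 to 110, which like all intervals here covers counting error only). The authors' fold enrichment, ChIP tags against the local background, was 53.05, and their score, the MACS p-value written as minus 10 times its log10, was 551.11. The fold was the highest of the 462 attached peaks and the score was tied for the highest with 1 other, while 3 attached peaks held more tags. Its false discovery rate (FDR), which MACS takes from exchanging ChIP and input, was 0%. The peak lay downstream of the starts, with its summit 777 bp from the nearer start and 464 bp between the peak and the nearer promoter window.

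In suspended cells NPAS4 held 2 peaks. The larger, at 66421415 to 66422224, contained the whole attached peak, was 810 bp wide and held 119 tags (98.6 to 142). Its authors' fold of 28.22 ranked 14 of 9024 and its score of 669.1 ranked 4, with an FDR of 0%. The summit lay 735 bp downstream of the nearer start, 42 bp from the attached summit. Of the 210 sites called in both lists, 148 had a shift of 42 bp or less, and the median was 23.5 bp. The smaller peak, at 66418742 to 66419062, lay inside the RefSeq span, with its summit 9765 bp above the lower-coordinate end. It was upstream only of the starts in the promoter table, by 2081 bp from the nearer. It was 321 bp wide and held 26 tags (17.0 to 38.1) at a fold of 9.83, a score of 119.27 and an FDR of 0.24%, and no attached peak overlapped it. A pair of peaks or more was found in 8.32% of protein-coding genes in suspended cells, and in 6.30% of those of 5 to 20 kb, the class of NPAS4.

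At the shared NPAS4 site the suspended peak held more tags and was wider. Scaled to the depth of each ChIP library, its tags were 1.36 times those of the attached peak (exact conditional binomial 95% interval 1.02 to 1.81). The median over the 210 shared sites was also 1.36. The suspended peak was 1.79 times as wide, and 16.2% of shared sites had a width ratio at least as large. Per bp of called peak the ratio was therefore 0.760, on the other side of 1, against a median of 1.10, and 5.24% of shared sites had a value as low or lower. The direction at NPAS4 thus depends on whether tags are counted per peak or per bp.

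BDNF encodes brain-derived neurotrophic factor and is known for several alternative promoters. It spans chromosome 11, 27654893 to 27722030, and the table gives 5 starts on the minus strand. The attached peak, at 27720622 to 27720776, held 10 tags (4.80 to 18.4) in 155 bp, and the suspended peak, at 27720559 to 27720739, held 11 tags (5.49 to 19.7) in 181 bp. Both were small calls, since the lowest number of tags in any peak of either list was 8. The authors' fold was 21.17 in the attached list, where 20.6% of peaks had as high a fold, and 10.38 in the suspended list, where 36.1% had. The FDR was 100% for the attached peak, as for 305 of the 462 attached peaks, and 3.29% for the suspended one.

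The BDNF calls overlapped by 118 bp, with summits 23 bp apart. The tag ratio scaled to depth, suspended to attached, was 1.12 with an interval of 0.431 to 2.94, and per bp it was 0.957. At this depth neither a rise nor a fall of tags at BDNF was detectable. The summits lay 68 bp (attached) and 91 bp (suspended) downstream of the start at 27720779. They were 1319 and 1342 bp downstream of the outermost start at 27722030, and 1145 and 1122 bp upstream of the one at 27719566. The remaining starts, at 27701621 and 27659658, lay further downstream, and the summits were 19090 and 19067 bp upstream of the nearer of them. A noncoding gene, LOC124902652, begins 1531 bp above the attached summit, so the peaks stand within 5 kb of it too. Of all summits on chromosomes with a promoter entry, 8.74% in attached (38 of 435) and 7.49% in suspended cells (645 of 8612) lay within 100 bp of an annotated start.

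**Figure D2:**
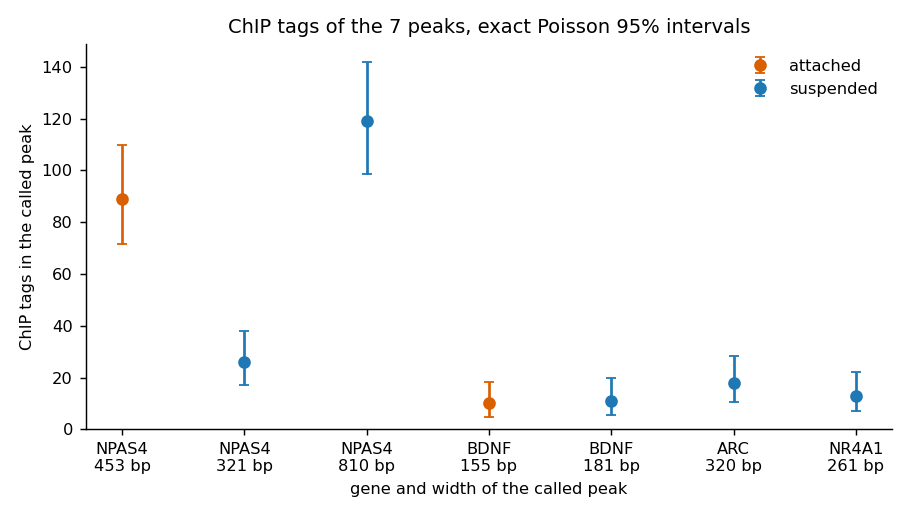
ChIP tags in each of the 7 peaks, with exact Poisson 95% intervals as bars and the width of the called peak under each gene name; orange is attached, blue is suspended. The NPAS4 intervals of 71.5 to 110 and 98.6 to 142 overlap, and the BDNF, ARC and NR4A1 peaks hold 10 to 18 tags.

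The sequences printed above carry what the promoter table says of these starts. In BDNF, 47 bases of the window at 27720779 lay inside the attached peak and 10 inside the suspended one. The PU box match, the core of sites of SPIB and its relative PU.1, stood at 27720736 to 27720741, 25 bp from the attached and 48 bp from the suspended summit. All 6 of its bases lay in the attached peak, and 4 in the suspended peak, which ends at 27720739. GAGGAA was searched on both strands, and it was in 4 of the 12 member windows (NPAS4, BDNF and NR4A3) and in 27.9% of all 35116 windows, so a match is common. The core CGGAAG, shared by many ETS factors, was in both overlapping NPAS4 windows and in no other member window, against 19.5% of all windows. A match is a description of letters and not a bound site, and the NPAS4 matches lie outside its peaks.

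CREB sites mark many activity-dependent promoters, and the core TGACG was in 5 of the 12 member windows, against 24.6% of all windows. The 5 include both overlapping NPAS4 windows, which hold the same matches. They belonged to 4 of the 6 genes, namely NPAS4, BDNF (at the start 27701621), NR4A3 and NPTX2. NPAS4 had 2 matches, 140 and 130 bases before the start, and NR4A3 had 4. Of these genes NPAS4 and BDNF held peaks, and NR4A3 and NPTX2 did not. The full site TGACGTCA, which contains the core, was in no member window (1.85% of all), and neither was the NR4A site AAAGGTCA (1.22%). The RE1 element, bound by the neuronal-gene repressor REST, was searched as CAGCACC and GGACAG with 2 bases between them. It was in no member window and in 0.0513% of all windows. Its parts alone were found in 7.75% (CAGCACC, no member window) and 20.5% (GGACAG, 1 member window, at the BDNF start 27719566). Bases of the NPAS4 peaks lie outside these windows and were not read.

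ARC, an activity-regulated cytoskeleton-associated protein gene, spans chromosome 8, 142611049 to 142614479, and had no attached peak. The suspended peak at 142615289 to 142615608 held 18 tags (10.7 to 28.4) in 320 bp, with a fold of 7.36, a score of 52.5 and an FDR of 5.56%. Its summit lay 1005 bp beyond the higher-coordinate end of the gene, which is the upstream side, since ARC is read toward lower coordinates. Of the suspended peaks 82.2% had at least its score, so it stood near the bottom of the list. A further suspended peak, with 20 tags (12.2 to 30.9), lay 7245 bp below the gene and so outside the 5 kb rule. The surroundings were rich in calls, with 18 suspended peaks within 500 kb of ARC. The median over all protein-coding genes was 5 (quartiles 2 and 9). A gene's own peaks are included in these counts.

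The NR4A genes encode orphan nuclear receptors that work as early-response factors, and their peaks were few. NR4A1 (chromosome 12, 52022832 to 52059503) had a suspended peak at 52061075 to 52061335, with 13 tags (6.92 to 22.2) in 261 bp, a fold of 10.14 and an FDR of 2.47%. This summit lay 1730 bp past the downstream end of NR4A1 and 23518 bp from its nearest start. It also lay 4067 bp below ATG101, the gene of an autophagy initiation protein, and within 5 kb of the antisense gene NR4A1AS, so its position does not tell which gene it belongs to. NR4A2 (chromosome 2, 156324437 to 156332721) had no peak by the rule. The nearest suspended one, with 28 tags (18.6 to 40.5), a fold of 8.19 and an FDR of 0.2%, lay 9464 bp beyond its higher-coordinate end. NR4A3 (chromosome 9, 99821885 to 99866891) had none nearer than 150 kb. In attached cells the nearest peaks to NR4A1, NR4A2 and NR4A3 were 8959, 6508 and 6368 kb away.

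The synaptic effectors NPTX2 and HOMER1 were also without a peak. The nearest suspended peak to NPTX2 (chromosome 7, 98617285 to 98629869) was 67.8 kb away, with 22 tags and a fold of 5.24. For HOMER1 (chromosome 5, 79372636 to 79514134) it was 47.5 kb away, with 12 tags and a fold of 16.22. The nearest attached peaks lay 2536 kb from NPTX2 and 98.4 kb from HOMER1. Within 500 kb, NPTX2 had 12 suspended peaks, more than NPAS4 with 10 and NR4A1 with 7, while NR4A3 and HOMER1 had 3 each and NR4A2 and BDNF 1 each. These counts include peaks assigned to the gene itself: 2 at NPAS4, 1 at NR4A1 and the 1 at BDNF. Members with a peak of their own thus stood in both crowded and sparse regions. A gene absent from a list is not shown to be unbound, since the lists hold only regions past the authors' p cutoff.

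The member peaks ranged widely within each list. The 5 suspended ones had a median of 18 tags, 320 bp and a fold of 10.1, where the whole list had 15 tags, 252 bp and 9.10. When the suspended list is read only as far as rank 462 by score, the length of the attached list, the NPAS4 peaks remain (ranks 4 and 411), while NR4A1 (2999), BDNF (4171) and ARC (7413) stand below. The attached BDNF peak ranked 240 by score.

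**Figure D3:**
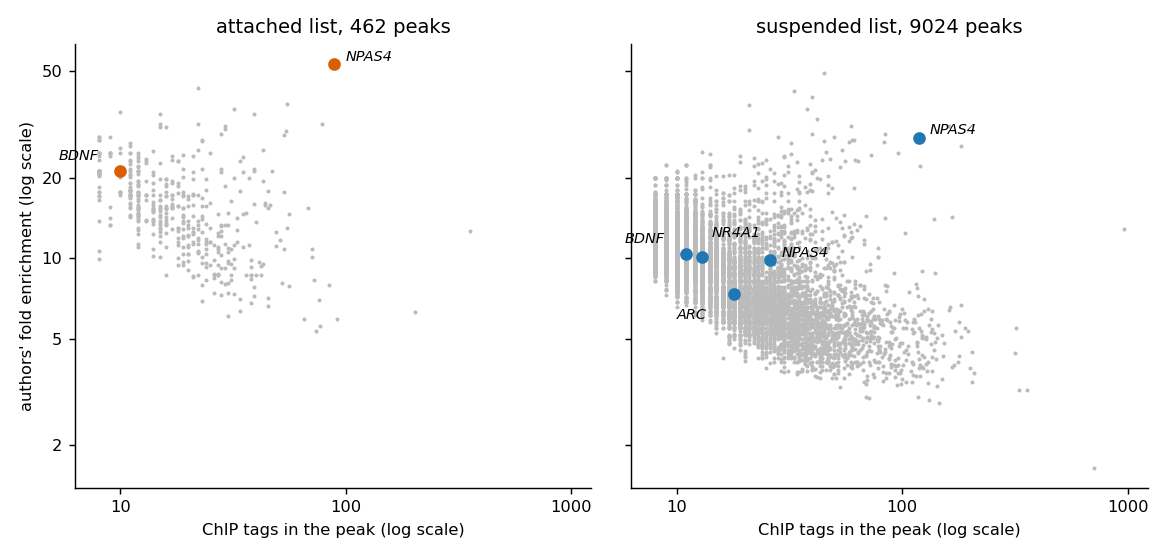
Authors' fold enrichment against ChIP tags, both on log scales, for every peak of the attached (left) and suspended (right) list in grey, with the peaks at the members in colour. NPAS4 stands at the top of the attached list with a fold of 53.05 and 89 tags, and its larger suspended peak combines 119 tags with a fold of 28.22, while the other member peaks lie inside the cloud.

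The genes most like NPAS4 in the pair of authors' folds were sought among the 272 protein-coding genes with a peak in both lists. The measure was the distance on the log2 scale between the highest folds of the gene in each list, over 2 libraries. The nearest was LRRC37A2 (distance 0.49, folds of 37.77 attached and 27.53 suspended), which has near-identical copies in the genome, so its reads may be shared among them. It was followed by the serotonin receptor gene HTR5A (0.62, 34.48 and 27.31), XKR7 (0.76, 31.83 and 24.6), SHANK2, a postsynaptic scaffold gene (0.81, 31.09 and 33.2), and SNAP25, a synaptic vesicle fusion gene (0.92, 31.03 and 40.05). NPAS4 has the highest attached fold of all, so it had to be higher than these in the attached list. In the suspended list SHANK2 and SNAP25 were higher than NPAS4.

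**Figure D4:**
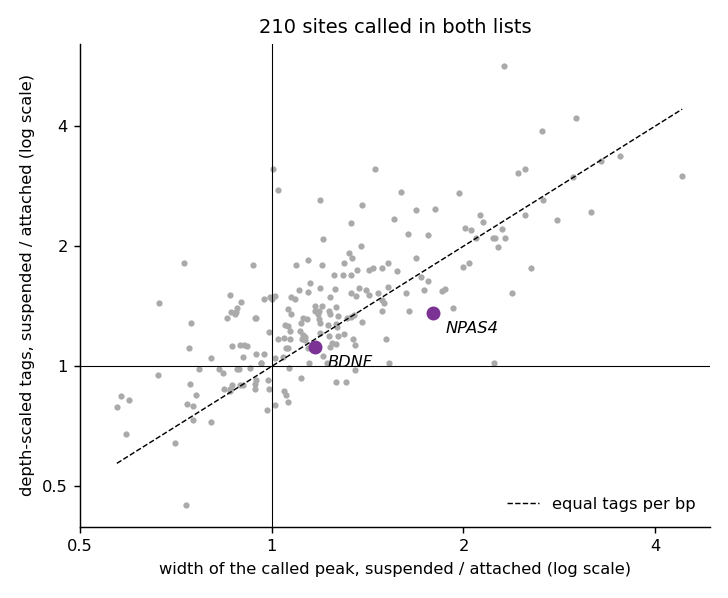
Ratio of tags, scaled to library depth, against ratio of peak width, suspended to attached, both on log scales, for the 210 sites called in both lists; the dashed line marks equal tags per bp. NPAS4 (tags 1.36, width 1.79) lies under the line and BDNF (1.12 and 1.17) close to it.

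Other genes of the pathway were counted in 7 lists of 139 genes in all. A suspended peak was found at 65 of them (46.8%) and an attached peak at 5 (3.60%), beside 28.6% and 1.86% of all protein-coding genes. The lists are not matched to all genes in length: the median span was 46.9 kb, against 24.1 kb for all protein-coding genes. Within 1 kb of a gene end, 30 of the 139 had a suspended peak, beside 13.8% of protein-coding genes. The lists were drawn up with earlier results of these data known, so the counts are descriptions.

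The 39 upstream signalling genes had a median span of 76.0 kb, and 33.8% of protein-coding genes of 50 to 100 kb had a suspended peak. Suspended peaks were found at 21 of the 39 signalling genes. They included CREB1, the activity-responsive factor itself, with 13 tags (6.92 to 22.2) at a summit 802 bp before the nearest start and 8 tags at a fold of 15.6 inside the gene. The calcium-dependent kinase gene CAMK4 (highest fold 16.39), the factor gene MEF2C (13.65), the NMDA receptor subunit gene GRIN1 (12.47, with 3 peaks) and the deacetylase gene HDAC4 (12.2) also had one, all with summits inside the gene. These genes were named by fold, and all were small calls. The peaks at these folds held 8 tags in CAMK4, MEF2C and HDAC4, the lowest count in the list. The GRIN1 peaks held 10 to 11 tags. Larger calls at lower folds were found at other signalling genes. Among them were GRIN2B (79 tags, fold 4.52) with a summit 27 bp after a start, and CACNA1C (73 tags, 5.17). SRF had 47 tags (5.27) at a summit 172 bp before a start. MRTFB, a coactivator of SRF, was the attached call of this list, with 8 tags (3.45 to 15.8) at an FDR of 100% and no suspended peak over it.

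Immediate early factor genes had a suspended peak in 10 of 20 members and an attached peak in none. Among all protein-coding genes the shares were 28.6% and 1.86%, so few attached calls would be found in any list of this size. The immediate early genes are short, with a median span of 5.37 kb. Of all protein-coding genes, 16.0% of those of up to 5 kb and 24.7% of those of 5 to 20 kb had a suspended peak. A suspended peak lay within 1 kb of a gene end in 8 of the 20, beside 13.8% of all protein-coding genes. EGR1 had 53 tags (39.7 to 69.3) with a summit 297 bp before its start, and 20 tags in a neighbouring peak 241 bp after it. FOSL2 had 38 tags (26.9 to 52.2) 101 bp before its start, JUN 17 tags 310 bp before and JUND 16 tags 479 bp before. KLF10 had 3 peaks, of 79, 69 and 25 tags.

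Other activity-regulated genes had a median span of 7.72 kb, and 24.7% of protein-coding genes of 5 to 20 kb had a suspended peak. A suspended peak was found in 9 of the 32 members, near the share of all protein-coding genes, and an attached peak in 2. These were VGF, a secreted neuropeptide precursor gene, and CRH, the gene of corticotropin-releasing hormone. The attached VGF peak held 39 tags (27.7 to 53.3) and the suspended one 65 (50.2 to 82.8), with summits 12 and 37 bp before an annotated start, in calls of 509 and 659 bp. CRH had 33 tags (22.7 to 46.3) and 32 (21.9 to 45.2), in calls of 426 and 327 bp. The FDR of the attached call was 35.79% for VGF and 19.51% for CRH. Among those called only in suspended cells, the somatostatin gene SST had a fold of 14.9, DUSP5 7.8, GADD45B 6.9, NPTX1, a relative of NPTX2, 5.96, and the clock gene PER1 5.3 over 3 peaks.

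Partners of the effectors are mostly long genes. Of all protein-coding genes, 33.8% of those of 50 to 100 kb and 41.9% of longer ones had a suspended peak. Among neurotrophins and their receptors 5 of 8 genes were called in suspended cells, with a median span of 65.5 kb for the list. NTRK2, the gene of the BDNF receptor, had 8 tags in each peak, the lowest count in the list of peaks (highest fold 14.9). NTRK3 had 11 tags (14.04), NGFR 37 (5.21) and the neurotrophin gene NTF4 18 (7.28). The HOMER, NPTX and ARC partners were called in suspended cells in 12 of 21, with a median span of 186 kb. SHANK2 had 29 tags (19.4 to 41.6) attached and 42 (30.3 to 56.8) suspended in calls of 386 bp each. At its shared site SHANK1 had 19 (11.4 to 29.7) and 34 (23.5 to 47.5), in calls of 311 and 474 bp. The FDR of the attached call was 5.56% for SHANK2 and 100% for SHANK1. The AMPA receptor gene GRIA4 (17.39), the metabotropic receptor gene GRM5 (14.9), SHANK3 (11.2), HOMER2 (11.17) and RYR2 (10.92) had suspended peaks alone. None of these 5, named by fold, had more than 12 tags in any peak. Larger calls at lower folds were also in this list, such as a DLG4 peak of 116 tags (4.83).

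Among partners and relatives of NPAS4, 2 of 8 were called in suspended cells, beside 28.6% of all protein-coding genes. These were CLOCK, with 38 tags (26.9 to 52.2) at a summit 339 bp before a start, and NPAS2 with 9. The dimer partner genes ARNT and ARNT2 had no peak in either list. In suspended cells 6 of 11 NR4A partners and coregulators were called, beside 41.9% of protein-coding genes over 100 kb. The median span of the 11 was 155 kb. Called genes included RXRA, the retinoid X receptor that pairs with NR4A1 and NR4A2 (fold 15.24, 15 tags), and the coactivator gene NCOA3 (14.34, 8 tags). The corepressor genes NCOR1 (highest fold 9.54 at 12 tags, with 5 peaks) and RCOR1 (9.54, 10 tags) were also called.

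**Figure D5:**
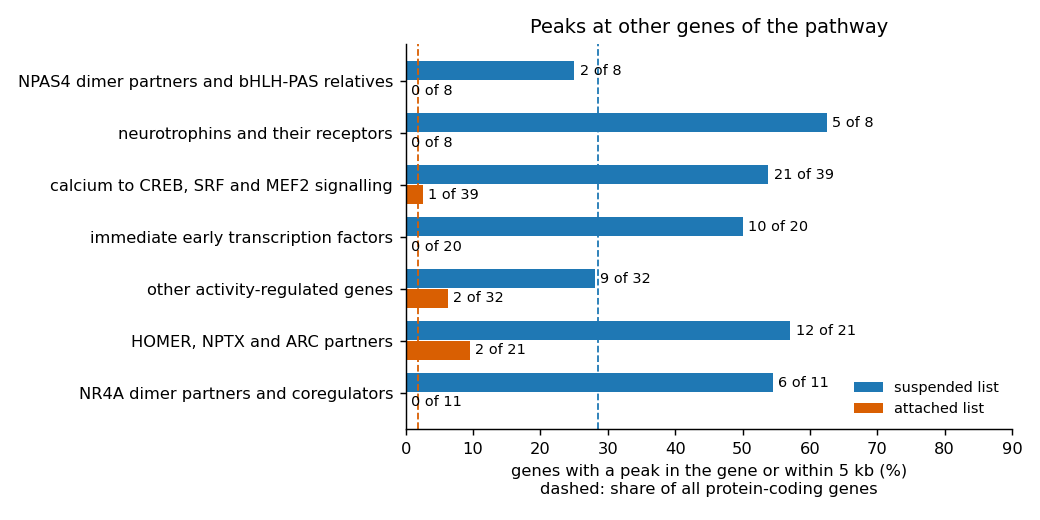
Share of genes with a peak by the 5 kb rule for 7 lists of related genes, blue bars for the suspended and orange for the attached list, with counts at the bars and dashed lines at the share of all protein-coding genes (28.6% and 1.86%). Attached calls are found in 3 of the 7 lists, with at most 2 genes in each.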

How the data were processed

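The authors used MACS 1.4.2 to call peaks, each ChIP against the input of its condition (15878452 and 21437074 filtered input tags), at a p cutoff of 1e-05 and 1 tag per position, per the file headers. The larger library was scaled to the smaller, per the file headers. The build is hg38, per the submitters' processing notes, and no aligner is named in the sources used here. The deposited tags are counts of ChIP tags per peak, with no normalization. The fold is the authors' ratio of ChIP to local background, the score is the authors' minus 10 times log10 p (its column name was lost), and FDR is the authors' percent; all were used only within a list.

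Spans came from the RefSeq table and starts from the RefSeq promoter table (35116 windows), which is not complete. Sites were shared where peaks overlapped by at least 1 bp. Python 3.11.15, numpy 2.4.6, pandas 2.3.3, SciPy 1.17.1 and matplotlib 3.10.9 were used, and gene assignment and intervals were tested on simulated data. Named genes were the 8 members, every listed gene with an attached peak, up to 5 others per list by suspended fold, and the 5 nearest to NPAS4; some of these are not reported here. ARNT, ARNT2, GRIN2B, CACNA1C, SRF and DLG4 were added after their values were seen. Members and lists were chosen with earlier results of these data known.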

Additional observations from a re-analysis of the deposited data

How the results depend on the processing

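With a flank of 1 kb, 2 members and 3 peaks remained in suspended cells (NPAS4 and BDNF), and with 10 kb 5 members and 7 peaks. At an FDR of at most 5%, attached cells kept 1 member and 1 peak (NPAS4), no gene of the related lists (0, from 5), and the ARC peak left the suspended list. With peaks of at least the median score, attached cells again kept 1 member and 1 peak. The related lists kept 47 to 71 genes with a suspended peak under the 5 alternatives. Per bp of peak, the tag ratio was 0.760 at NPAS4 and 0.957 at BDNF (chosen after seeing the data), both reversed by the wider suspended calls; raw tags gave 1.34 and 1.10. A ratio of the authors' folds between lists was planned but not run, because each fold refers to the background of its own list. No paired analysis was possible because each condition had 1 ChIP library. Tags of 10 to 26 outside the main NPAS4 peak limit what can be seen there.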
